A study of Mus musculus with 4 samples.

Results

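The Hox genes are the homeobox genes of the 4 clusters Hoxa, Hoxb, Hoxc and Hoxd, which encode DNA-binding transcription factors that give cells their place along the head-to-tail axis. They were examined here in mouse embryonic stem (ES) cells on 4 Affymetrix mouse genome arrays. The members were all genes with a Hoxa to Hoxd name and a paralog number from 1 to 13 that had a probe set annotated to that gene alone. This gave 33 genes and 48 probe sets, of 18193 named genes and 34945 probe sets with 1 gene name, where the RefSeq table of the mouse genome lists 39 such Hox genes. The members are 9 genes of Hoxa, 9 of Hoxb, 7 of Hoxc and 8 of Hoxd. By paralog number, 10 are anterior (1 to 4), 9 central (5 to 8) and 14 posterior (9 to 13). The rule uses names alone and no measured value.

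The groups, of 1 array each, were ES cells with a constitutive knockout (KO) of Ring1B, the wild-type ES cells labelled as their control, ES cells with a conditional double KO of Ring1A and Ring1B at day 4, and the wild-type ES cells labelled as the control of the double KO. Ring1A and Ring1B, the products of Ring1 and Rnf2, are the RING-finger subunits of Polycomb repressive complex 1. The double KO was made conditional and induced with OHT, the usual abbreviation of 4-hydroxytamoxifen, because, per the series' design text, cells with a constitutive one cannot be kept in culture. The labels do not name the cell lines or clones, the event from which the day was counted, or whether any control received OHT. With 1 array per group no difference had a replicate check, no test was possible and no p-value is given.

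In the embryo, Hox genes are switched on in an order that follows their position in the cluster, with anterior paralogs early and towards the head and posterior paralogs late and towards the tail and the limb tips. In ES cells they are largely silent, and their promoters are textbook targets of Polycomb complexes, which mark histones H3 and H2A and keep developmental genes repressed. Hox proteins bind DNA together with cofactors of the Pbx and Meis families, and retinoic acid and Cdx factors are known activators of the clusters.

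The promoters of members that differed between arrays are shown with a member that stayed dim on every array, so that the sequences can be set beside the signals given below. They are the member with the largest double KO difference in each cluster among those with a promoter entry (Hoxa9, Hoxb4, Hoxc4 and Hoxd9), and Hoxd12, which was added after its values were seen. Hoxc4 is the only Hoxc member with an entry. Hoxb13 and Hoxc10, whose differences were larger than those of Hoxb4 and Hoxc4, have none. The sequences are from RefSeq, build GRCm38.p6, and run 5′ to 3′ on the gene's strand from 250 bases before to 50 bases after the annotated start. Capitals mark each CG dinucleotide.
Hoxa9 (chr6:52227321-52227620, minus strand): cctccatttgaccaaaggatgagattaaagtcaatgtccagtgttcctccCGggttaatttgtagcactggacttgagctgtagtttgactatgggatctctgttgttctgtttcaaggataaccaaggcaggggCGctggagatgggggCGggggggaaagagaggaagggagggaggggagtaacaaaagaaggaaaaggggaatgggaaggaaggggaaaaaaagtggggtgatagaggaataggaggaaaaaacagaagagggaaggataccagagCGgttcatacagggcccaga
Hoxb4 (chr11:96318017-96318316, plus strand): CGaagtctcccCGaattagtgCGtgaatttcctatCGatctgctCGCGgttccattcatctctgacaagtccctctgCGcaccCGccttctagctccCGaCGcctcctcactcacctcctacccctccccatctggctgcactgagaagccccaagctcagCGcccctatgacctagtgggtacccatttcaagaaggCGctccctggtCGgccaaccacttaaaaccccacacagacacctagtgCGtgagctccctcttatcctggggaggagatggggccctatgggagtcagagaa
Hoxc4 (chr15:103034145-103034444, plus strand): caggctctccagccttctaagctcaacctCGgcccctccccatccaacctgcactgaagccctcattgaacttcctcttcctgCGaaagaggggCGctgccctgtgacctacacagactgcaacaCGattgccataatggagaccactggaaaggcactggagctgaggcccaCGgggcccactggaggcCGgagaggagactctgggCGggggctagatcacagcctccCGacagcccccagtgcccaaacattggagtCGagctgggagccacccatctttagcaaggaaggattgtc
Hoxd9 (chr2:74697513-74697812, plus strand): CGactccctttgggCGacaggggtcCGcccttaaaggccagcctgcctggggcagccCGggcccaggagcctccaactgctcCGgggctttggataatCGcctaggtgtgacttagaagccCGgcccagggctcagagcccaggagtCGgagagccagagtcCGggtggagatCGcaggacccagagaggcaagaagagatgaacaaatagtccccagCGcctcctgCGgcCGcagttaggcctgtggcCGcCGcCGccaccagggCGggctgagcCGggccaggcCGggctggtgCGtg
Hoxd12 (chr2:74674763-74675062, plus strand): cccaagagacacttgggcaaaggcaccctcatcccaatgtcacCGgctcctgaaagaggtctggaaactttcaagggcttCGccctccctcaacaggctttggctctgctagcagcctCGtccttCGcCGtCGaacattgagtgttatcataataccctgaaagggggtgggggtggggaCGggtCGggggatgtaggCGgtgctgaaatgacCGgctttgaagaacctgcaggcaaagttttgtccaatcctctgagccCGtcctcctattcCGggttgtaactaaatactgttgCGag

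Promoter entries were found for 19 of the 33 members, in 21 windows of 300 bases. The median number of CG dinucleotides per window was 15 in the members, against 7 over all 32851 promoters of the table. At least 10 of them were present in 15 of 21 member windows and in 43.5% of all promoters. Among the printed windows, that of Hoxa9 had 4, that of Hoxb4 14, that of Hoxc4 9, that of Hoxd9 20 and that of Hoxd12 13. The motif TATAAA, searched on the gene's strand, was in 1 member window (Hoxd13), against 8.32% of all promoters. Of motifs searched on both strands, AGGTCA, a nuclear receptor half-site, was in 6 member windows and in 16.3% of all promoters. TTTATG, a core of Cdx binding sites, was in 3 and in 11.9%, and TGATNNAT, a Hox and Pbx composite site, was in 3 and in 8.85%. Overlaps between motifs were not removed. A match describes letters and is not a binding site.

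Signals are given on a linear scale after each array was scaled to a common mean. A floor was set at a signal of 36.6, the 40th percentile of all signals of named probe sets, below which values were not ordered. Of several probe sets for a gene, the brightest was used. A difference is the log2 signal of an array labelled KO minus that of the array labelled its control. A fold with 1 of its 2 signals at the floor can only be bounded from below, and "at least" marks it. Signals of different genes come from different probes and are not compared.

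The targeted genes give no check of the labels. Rnf2, at its brightest probe set, read 2775 and 2579.7 on the arrays labelled Ring1B KO and Ring1B KO control, and 1986 and 2182 on those labelled double KO and double KO control. Ring1 read 164 and 146 in the Ring1B pair, with 55.6 and 44.7 in the double KO pair. Whether these probe sets lie in the deleted parts is not known, so the arrays are named by their labels. Every direction given below rests on labels that the data do not check. All 10 ES cell marker genes, among them Pou5f1, Nanog and Sox2, were above the floor on all 4 arrays. The scaling factor was 0.554 for both arrays of the Ring1B pair, and 1.89 and 1.73 for the arrays labelled double KO and double KO control. The pairs were thus deposited on different scales.

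On the array labelled Ring1B KO, Hox genes of all 4 clusters had higher signals than on the array labelled its control. On the array that carries the double KO label they had lower ones than on its own control. Of the 33 members, the array labelled Ring1B KO had 22 above the floor and its control 9, while the array labelled double KO had 2 and its control 22. The same share over all 18193 named genes hardly differed between the arrays, at 65.0% and 64.6% in the Ring1B pair and 61.5% and 65.3% in the double KO pair. Most Hox genes were thus at the floor on the arrays labelled double KO and Ring1B KO control, and most gave a signal on the other 2 arrays. Each array measured a whole culture, in which more cells of a type and more RNA per cell cannot be told apart. Of the 33 members, 7 were at the floor on all 4 arrays (Hoxa4, Hoxb1, Hoxb5, Hoxb7, Hoxd3, Hoxd11 and Hoxd12), and 1, Hoxa5, was above it on all 4.

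**Figure D1:**
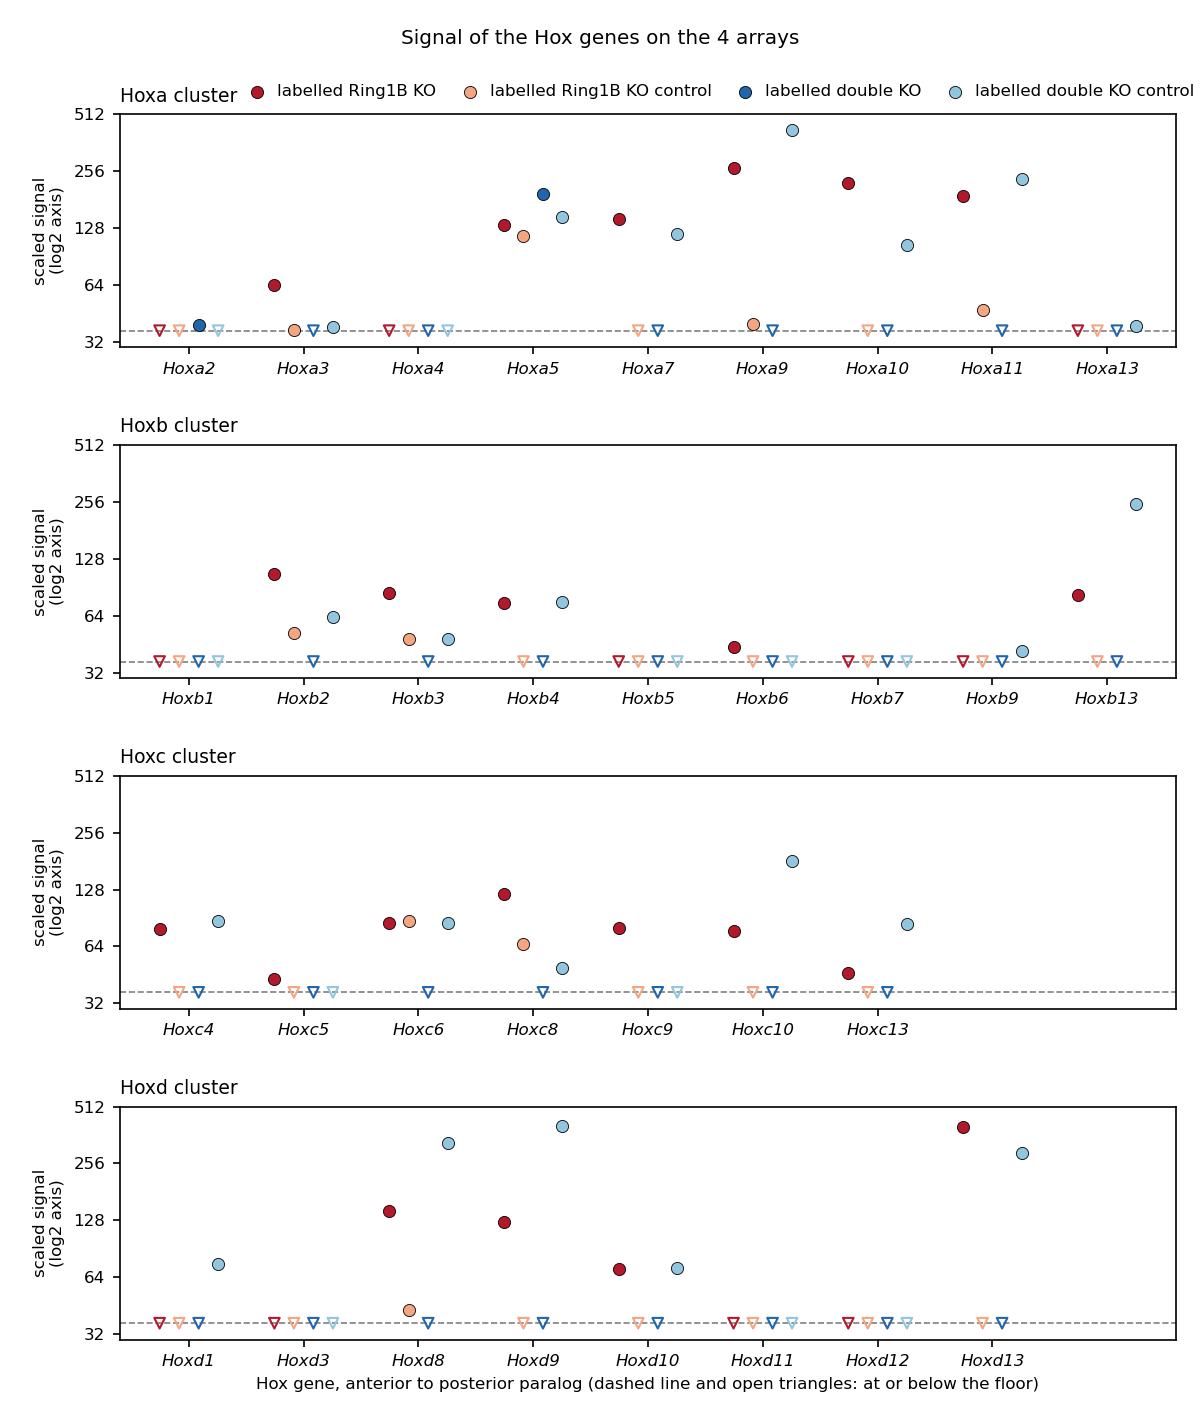
Scaled signal (log2 axis) of each Hox gene on the 4 arrays, with a panel for each cluster and genes in order of paralog number. Filled circles are signals above the floor of 36.6 and open triangles on the dashed line are signals at or below it. In 19 of the 33 genes the arrays labelled Ring1B KO and double KO control both have circles, and in 10 of these they are the only ones, as for Hoxd13 with 398 and 289.

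In the Ring1B comparison 13 of 33 Hox genes were at least 2-fold higher, against 2.4% of all 18193 named genes. None was at least 2-fold lower, where 1.77% of named genes were. The median log2 difference of all 33 members was 0.80, with members at the floor on both arrays at 0, and the median of all named genes was 0. On 1 or both of the arrays 22 of the 33 exceeded the floor, and 3.54% of the 12343 named genes that met this were at least 2-fold higher. For 9 of the 13 genes the array labelled Ring1B KO control was at the floor, so that the fold is a bound, and 4 (Hoxa9, Hoxa11, Hoxb2 and Hoxd8) were measured on both arrays. With the floor raised to the 60th percentile 2 genes were called.

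In the double KO comparison 14 of 33 Hox genes were at least 2-fold lower, against 6.78% of all named genes. None was at least 2-fold higher, where 2.05% of named genes were. The median log2 difference of the 33 members was −0.43, against 0 for all named genes. On 1 or both of the arrays 23 of the 33 exceeded the floor, and 9.99% of the 12353 named genes that met this were at least 2-fold lower. All 14 folds are bounds, with the double KO signal of each gene at the floor. With the floor raised to the 60th percentile 4 genes were called, and with the values as deposited 7.

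The 2 comparisons have no array in common. Of the 13 genes called higher in the Ring1B comparison, 11 (84.6%) were also called lower in the double KO comparison, and these 11 are 78.6% of the 14 lower ones. Over all named genes 224, or 1.23%, had both calls, which is 51.3% of all genes called higher in the first comparison and 18.2% of those called lower in the second. The 11 genes are Hoxa7, Hoxa9, Hoxa10, Hoxa11, Hoxb4, Hoxb13, Hoxc4, Hoxc10, Hoxd8, Hoxd9 and Hoxd13. Hoxb2 and Hoxc9 were called in the Ring1B comparison alone, and Hoxc6, Hoxc13 and Hoxd1 in the double KO comparison alone. Whether the comparisons differ for these 5 genes was not tested.

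**Figure D2:**
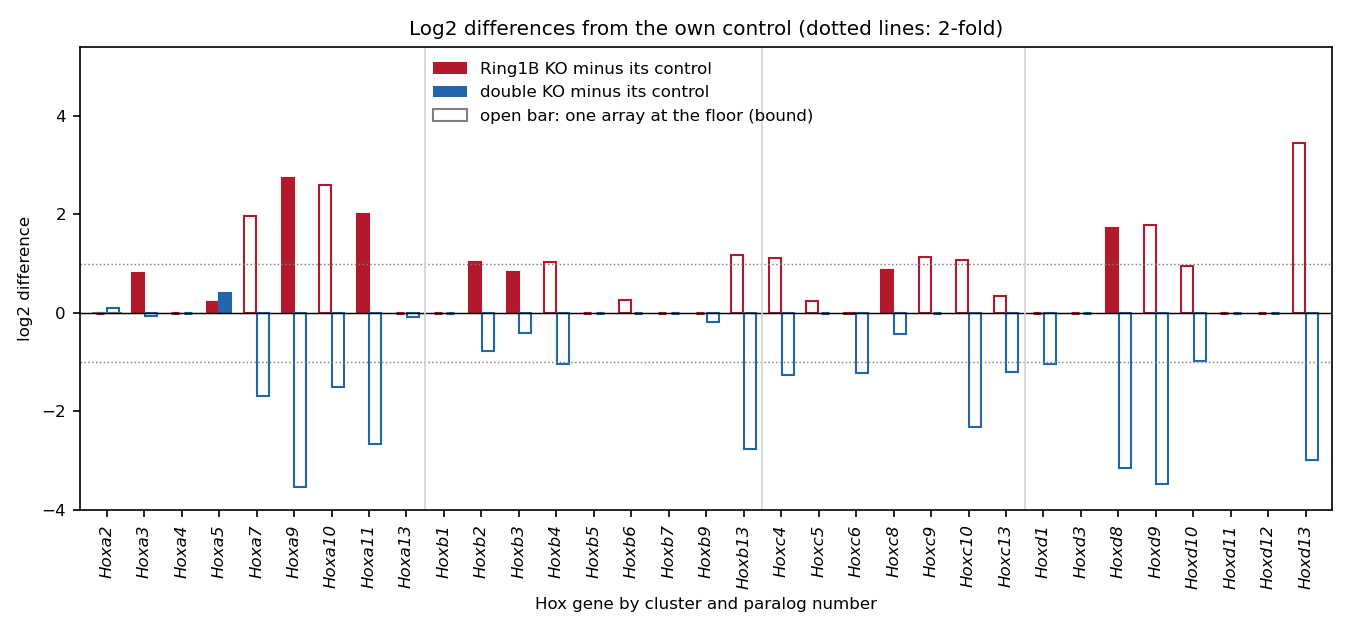
Log2 difference of each Hox gene, array labelled Ring1B KO minus its control (red) and array labelled double KO minus its control (blue), with open bars for bounds and dotted lines at 2-fold. The red bars point up and the blue bars down in all 11 genes called in both comparisons. Hoxa5, at 0.21 and 0.40, is the member with clear bars pointing up in both.

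The Hoxa genes that differed form an unbroken run of the named members from Hoxa7 to Hoxa11. Hoxa7, a central gene that helps shape cervical and upper thoracic vertebrae, read 143 on the array labelled Ring1B KO and was at the floor on its control, and was at the floor on the array labelled double KO against 119 on its control. The folds were at least 3.90 upwards in the Ring1B pair and at least 3.25 downwards in the double KO pair. Hoxa9, known for its part in blood stem cells and leukaemia, read 264 against 39.5 in the Ring1B pair, and was at the floor against 423 in the double KO pair. It was 6.69-fold higher on the array labelled Ring1B KO and at least 11.6-fold lower on that labelled double KO. Hoxa10, needed for the uterus and the lumbar spine, read 220.1 against the floor and the floor against 104, at least 6.02-fold higher in the first pair and at least 2.85-fold lower in the second. Hoxa11, a gene of the forearm and the uterus, read 189 against 47.2 and the floor against 233, 4.00-fold higher in the first pair and at least 6.38-fold lower in the second. In each of these 4 genes the high arrays were those labelled Ring1B KO and double KO control.

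Among the Hoxa genes outside the run from Hoxa7 to Hoxa11, the signals of Hoxa2, Hoxa4 and Hoxa13 were at or near the floor. Hoxa13, a gene of the digits and the genital tract, was at the floor on 3 arrays and read 38.9 on the array labelled double KO control. Hoxa2, which patterns the hindbrain and the branchial arches, was above the floor on the array labelled double KO alone, at 39.2. Hoxa3, a gene of thymus and parathyroid development, read 64.2 against 36.7 in the Ring1B pair, and the floor against 38.2 in the double KO pair. It was 1.75-fold higher in the first pair and at least 1.04-fold lower in the second. Hoxa4 was at the floor on every array. Hoxa5, which is needed for lung and airway formation, read 133 and 115 in the Ring1B pair, with 193 and 146 in the double KO pair at its brightest probe set.

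In the Hoxb cluster 3 genes were called. Hoxb2, a hindbrain gene, read 107 under the Ring1B KO label and 52.0 under that of its control, and was at the floor on the array labelled double KO against 62.7 on its control. It was 2.05-fold higher in the Ring1B comparison and at least 1.71-fold lower in the double KO comparison. Hoxb4, used to expand blood stem cells in culture, read 74.3 against the floor and the floor against 75.1, at least 2.03-fold higher in the first pair and at least 2.05-fold lower in the second. These bounds are just past 2-fold. Hoxb13, a gene of the tail and the prostate, read 82.3 against the floor and the floor against 248, at least 2.25-fold higher in the first pair and at least 6.79-fold lower in the second. Hoxb3 read 84.8 against 47.9 in the Ring1B pair, and the floor against 48.4 in the double KO pair, 1.77-fold higher in the first and at least 1.32-fold lower in the second. The central genes Hoxb5, Hoxb6 and Hoxb7 between them gave a single signal above the floor, 43.6 for Hoxb6 on the array labelled Ring1B KO. Hoxb9 was at the floor except on the array of the double KO control, where it read 41.4. Hoxb1, an early hindbrain gene, was at the floor on every array.

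All 7 Hoxc members were above the floor on the array labelled Ring1B KO, against 2 on its control, and none was above it on the array labelled double KO, against 5 on its control. Hoxc4 read 79.0 against the floor in the Ring1B pair and the floor against 87.7 in the double KO pair, at least 2.16-fold higher in the first pair and at least 2.40-fold lower in the second. Hoxc10, which marks lumbar motor neurons and the hindlimb, read 77.3 against the floor and the floor against 182, at least 2.11-fold higher in the first pair and at least 4.98-fold lower in the second. Hoxc9, which sets the identity of thoracic motor neurons, read 80.2 on the array labelled Ring1B KO and was at the floor on the other 3 arrays, so that it was at least 2.19-fold higher in the Ring1B comparison and could not be compared in the other. Of the called Hoxc genes it is the one with no signal on the array labelled double KO control.

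The other Hoxc genes were not called in both comparisons. Hoxc6 read 84.8 and 86.9 on the arrays labelled Ring1B KO and Ring1B KO control, a log2 difference of −0.04, and was at the floor on the array labelled double KO against 85.0 on its control, at least 2.32-fold lower. At this brightest probe set the array labelled double KO was thus the one that stood apart. Another probe set of Hoxc6 read 75.6 and 81.8 in the Ring1B pair, and the floor against 42.3 in the double KO pair. Hoxc13, a gene of hair and nails, read 46.5 against the floor and the floor against 83.9, at least 1.27-fold higher in the first pair and at least 2.29-fold lower in the second. Hoxc8, a gene of the thoracic skeleton and of motor neurons to the forelimb, read 121 against 66.2 and the floor against 49.4, 1.82-fold higher in the first pair and at least 1.35-fold lower in the second. Hoxc5 was above the floor on the array labelled Ring1B KO alone, at 43.1.

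In the Hoxd cluster 4 genes were called, of which 3 were called in both comparisons. Hoxd8 read 143 under the Ring1B KO label and 43.1 under that of its control, and was at the floor on the array labelled double KO against 327 on its control, so it was 3.32-fold higher and at least 8.95-fold lower. Hoxd9, a gene of the limb and the lower spine, read 125 against the floor and the floor against 406, at least 3.42-fold higher in the first pair and at least 11.1-fold lower in the second. Hoxd13, whose loss malforms the digits, read 398 against the floor and the floor against 289, at least 10.9-fold higher in the first pair and at least 7.91-fold lower in the second. In these 3 genes the highest signals were on the arrays labelled Ring1B KO and double KO control.

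Hoxd10, which patterns the hindlimb and the lumbar cord, read 70.8 against the floor and the floor against 71.8. It was at least 1.94-fold higher in the first pair and at least 1.96-fold lower in the second, and these bounds are just short of 2-fold. Hoxd1, a gene of pain-sensing neurons, was at the floor on 3 arrays and read 75.3 on the array labelled double KO control, so the double KO label had at least 2.06-fold less signal than its control. Hoxd11 and Hoxd12, which lie between Hoxd10 and Hoxd13, were at the floor on all 4 arrays, as was Hoxd3. Hoxd11 signals of 36.1 and 35.8, on the arrays labelled Ring1B KO and double KO control, lay just below the floor, where values were not ordered. The 4 Hoxd12 signals were between 0.997 and 5.35.

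By paralog position, most of the called genes were posterior. In the Ring1B comparison 8 of 14 posterior genes were at least 2-fold higher, against 2 of 9 central and 3 of 10 anterior genes. The median log2 differences were 1.11 for the posterior, 0.24 for the central and 0.40 for the anterior genes. In the double KO comparison 8 of 14 posterior genes were at least 2-fold lower, with 3 of 9 central and 3 of 10 anterior ones, and the medians were −1.35, 0 and −0.23. Of 14 posterior genes, the array labelled Ring1B KO had 10 above the floor and its control 2, with none on the array labelled double KO against 11 on its control. The position classes were not tested against each other, since genes of a cluster are no replicates.

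**Figure D3:**
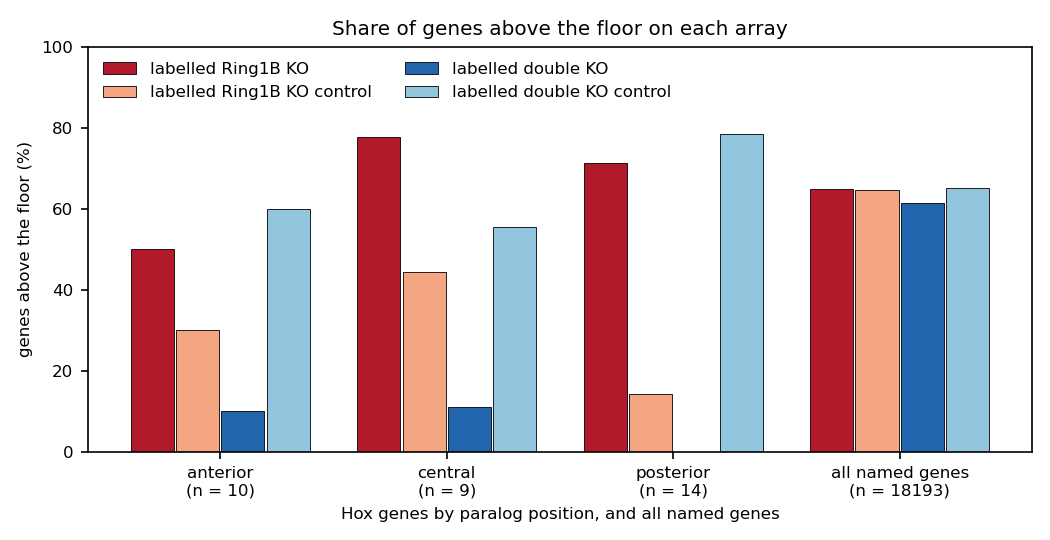
Percent of genes above the floor on each array, for anterior, central and posterior Hox genes and for all 18193 named genes. Posterior Hox genes reach 71.4% and 78.6% on the arrays labelled Ring1B KO and double KO control and 14.3% and 0% on those labelled Ring1B KO control and double KO. Over all named genes the 4 bars lie between 61.5% and 65.3%.

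By cluster, calls were found in each of the 4. In the Ring1B comparison 4 of 9 Hoxa, 3 of 9 Hoxb, 3 of 7 Hoxc and 3 of 8 Hoxd genes were at least 2-fold higher, with median log2 differences of 0.80, 0.25, 0.86 and 0.48. In the double KO comparison 4 of 9 Hoxa, 2 of 9 Hoxb, 4 of 7 Hoxc and 4 of 8 Hoxd genes were at least 2-fold lower, with medians of −0.09, −0.18, −1.20 and −1.01. The summed signal of Hoxd was 822 and 143 in the Ring1B pair, with 88.4 and 1234 in the double KO pair. That of Hoxa, 1056 and 323 against 339 and 1144 in the same order, held a Hoxa5 signal that did not follow the others. Sums include signals below the floor.

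The control arrays, both labelled as wild-type cells, also differed from each other in the Hox genes. On the array labelled double KO control, 13 of 33 Hox genes were at least 2-fold higher than on the array labelled Ring1B KO control, against 8.48% of all named genes. None was at least 2-fold lower, where 5.67% of named genes were. Hoxd9 was at least 11.1-fold higher, Hoxa9 10.7-fold, Hoxd13 at least 7.91-fold and Hoxd8 7.60-fold. This comparison shares an array with each of the others and is no separate evidence. For 8 of the 13 genes called in the Ring1B comparison the direction turned when the other control array was used. Against the array labelled double KO control, 3 of 33 Hox genes were at least 2-fold higher on the array labelled Ring1B KO, where 5.5% of all named genes were, and 5 at least 2-fold lower, where 7.67% were. Against the array labelled Ring1B KO control, the array labelled double KO was at least 2-fold lower in 1 of 33 genes, Hoxc6, where 6.66% of all named genes were.

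Of the 33 members, 11 had several probe sets. In the Ring1B comparison 6 of these had more than 1 probe set above the floor, and in all 6 their probe sets had the same direction. For Hoxa9, Hoxd8 and Hoxd13 every such probe set was at least 2-fold higher, with differences from 1.05 to 2.74, from 1.34 to 1.73 and from 1.30 to 3.44. A probe set counted here with its control at the floor, as for Hoxb4 and Hoxd13, could only point up. With the array labelled double KO at the floor, it could only point down in that comparison. The shared directions were thus partly fixed in advance and are no separate evidence. In the double KO comparison 7 genes had more than 1 probe set above the floor, and 1 of them, Hoxa5, had opposite directions. Its brightest probe set, of a class that can match several transcripts, differed by 0.40. Its other probe set read 91.7 against the floor in the Ring1B pair and the floor against 89.3 in the double KO pair, or 1.33 and −1.29 as log2 differences. By the other probe set Hoxa5 had the directions of Hoxa7. Hoxa9 at its second probe set was lower by less than 2-fold, at −0.93. Hoxc6 at another probe set had a bound of −0.21, so its call rests on 1 probe set. The calls of Hoxa10 and Hoxb4 also rest on 1 probe set each. The other probe set of Hoxa10 was at the floor on all 4 arrays. That of Hoxb4 had a bound of 0.47 in the Ring1B comparison and was at the floor on both arrays of the double KO pair.

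**Figure D4:**
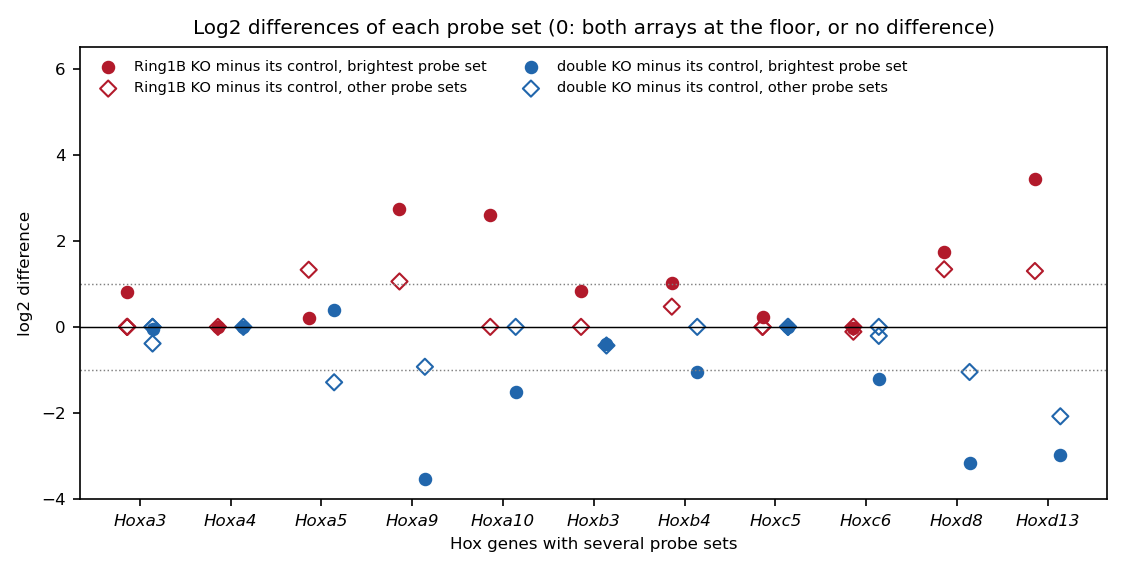
Log2 differences of every probe set of the 11 Hox genes with several, array labelled Ring1B KO minus its control (red) and array labelled double KO minus its control (blue), with circles for the brightest probe set and diamonds for the others. Points at 0 are mostly probe sets at the floor on both arrays. Hoxa5 is the gene whose probe sets in the double KO comparison point in opposite directions, at 0.40 and −1.29.

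Other transcripts of the clusters were set beside the members. Hoxa11os, an antisense RNA of the Hoxa11 locus, read 122 against the floor in the Ring1B pair and the floor against 121 in the double KO pair at the brighter of its 2 probe sets. This was at least 3.34-fold above and at least 3.31-fold below the control, the directions seen for Hoxa11. Its other probe set was at the floor on every array. Hoxb5os was above the floor on the array labelled Ring1B KO alone, at 61.1, and both probe sets of Hoxd3os1 were at the floor throughout. Probe sets shared by Hoxd3 and Hoxd4 were at the floor on all arrays, and one shared by Hoxb7 and Hoxb8 read 37.7 on the array labelled Ring1B KO and the floor on the others.

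Of 17 genes beside the clusters, none was at least 2-fold higher or lower in the Ring1B comparison, and 1 was at least 2-fold lower in the double KO comparison. These counts are near the shares over all named genes given above and show nothing particular to the 17 genes. Their median log2 differences were −0.09 and 0.02. The 1 gene is Evx1, the homeobox gene next to Hoxa13, which was at the floor on 3 arrays and read 76.9 on the remaining one, labelled double KO control. Skap2, on the other side of Hoxa, read 827 and 1148 in the Ring1B pair, with 1010.2 and 875 in the double KO pair. Mtx2, next to Hoxd1, read 1243 and 973 in the Ring1B pair, with 873 and 1140.2 in the double KO pair. Both were above the floor on all 4 arrays, whereas Evx1, Evx2 and Skap1 were not.

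Among 8 Hox cofactor genes, 2 were called, in the same directions as the Hox genes. Calls in these directions covered 2.4% of all named genes in the Ring1B pair and 6.78% in the double KO pair. Whether the cofactor list differs from these shares was not tested. As a set the cofactors were mixed. By any amount, 5 were up and 3 down in the Ring1B pair, with 3 up and 4 down in the double KO pair. Meis1, which encodes a partner of Hox proteins in blood and limb, read 123 and 40.8 in the Ring1B pair, and the floor against 114 in the double KO pair, 3.01-fold higher in the first pair and at least 3.12-fold lower in the second. Meis2 read 123 against the floor and the floor against 97.8, at least 3.36-fold higher in the first pair and at least 2.67-fold lower in the second. Pbx2 read 604 and 597 in the Ring1B pair, with 376 and 371 in the double KO pair. Of 16 upstream regulators of the clusters, 2 were at least 2-fold higher in the Ring1B comparison and 4 at least 2-fold lower in the double KO comparison. The shares over all named genes were the same 2.4% and 6.78%. The median log2 differences of the 16 genes were 0 and −0.0095. By any amount, 6 were higher and 5 lower in the first, and 2 higher and 8 lower in the second. Rara and Rarg had directions opposite to the Hox genes, at −0.79 and 0.92 for Rara and −0.04 and 0.64 for Rarg as log2 differences. Cyp26a1, which breaks down retinoic acid, read 212 and 56.6 in the Ring1B pair, and the floor against 78.6 in the double KO pair. Cdx1, an activator of Hox genes, read 131 and 46.7 in the Ring1B pair, with 89.2 and 263 in the double KO pair. None of the 9 genes for chromatin activators of the clusters was at least 2-fold apart in either comparison, which in a list this short does not set it apart from the shares over all named genes. Kdm6b, at 585 against 1171 in the double KO pair, was just short of 2-fold lower. By any amount, 5 of the 9 genes were higher and 4 lower in that pair. Kmt2a, the methyltransferase that maintains Hox expression, read 269 and 223 in the Ring1B pair, with 542 and 665 in the double KO pair.

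Markers of other cell types also differed between the arrays. Over all named genes 2.4% were at least 2-fold higher and 1.77% lower in the Ring1B comparison. The shares in the double KO comparison were 2.05% higher and 6.78% lower. Counts of 1 in the short lists below cannot be told apart from these shares. Of 14 endoderm markers 11 were at least 2-fold higher on the array labelled Ring1B KO, with a summed signal of 27163 against 9081, and 7 were lower and 1 higher by that fold in the double KO comparison, with 6022 against 13353. Afp was at the floor on all 4 arrays. Of 15 fibroblast markers 1, Pdgfra, was at least 2-fold higher on the array labelled Ring1B KO (sum 23806 against 17910.2), and 11 were at least 2-fold lower on that labelled double KO (sum 8643 against 10739). None of them was at the floor on all arrays. Of 9 trophoblast markers 2 were at least 2-fold higher and 1 lower in the Ring1B comparison (sum 3398 against 2750.0), and 6 lower in the double KO comparison (sum 2364 against 9545), with Elf5 at the floor throughout. Of 8 mesoderm markers 3 were at least 2-fold higher in the Ring1B comparison (sum 1116 against 1330.0) and 3 lower in the double KO comparison (sum 751 against 1301), with Kdr at the floor throughout. Of 7 neural markers 2 were at least 2-fold higher and 1 lower in the Ring1B comparison (sum 992 against 1550.4), and 2 higher and 2 lower in the double KO comparison (sum 2235 against 1926). None of the 10 ES cell markers was at least 2-fold apart in the Ring1B comparison. Tdgf1 alone was at least 2-fold higher in the double KO comparison, and none was lower by that fold. Their sums were 48494 against 59654 in the Ring1B pair and 65121 against 48668 in the double KO pair. These directions are opposite to those of the Hox genes. A sum is weighted towards the brightest genes of its list. In the Ring1B pair Bmp4 read 589 against 1065 and Neurod1 137 against 1004. The mesoderm sum was lower there although 4 of its genes were higher and 2 lower. Among the fibroblast markers Fn1 read 6222 against 5108 in the double KO pair, where 14 of the 15 were lower. The part of other cell types in the Hox signals was not tested.

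**Figure D5:**
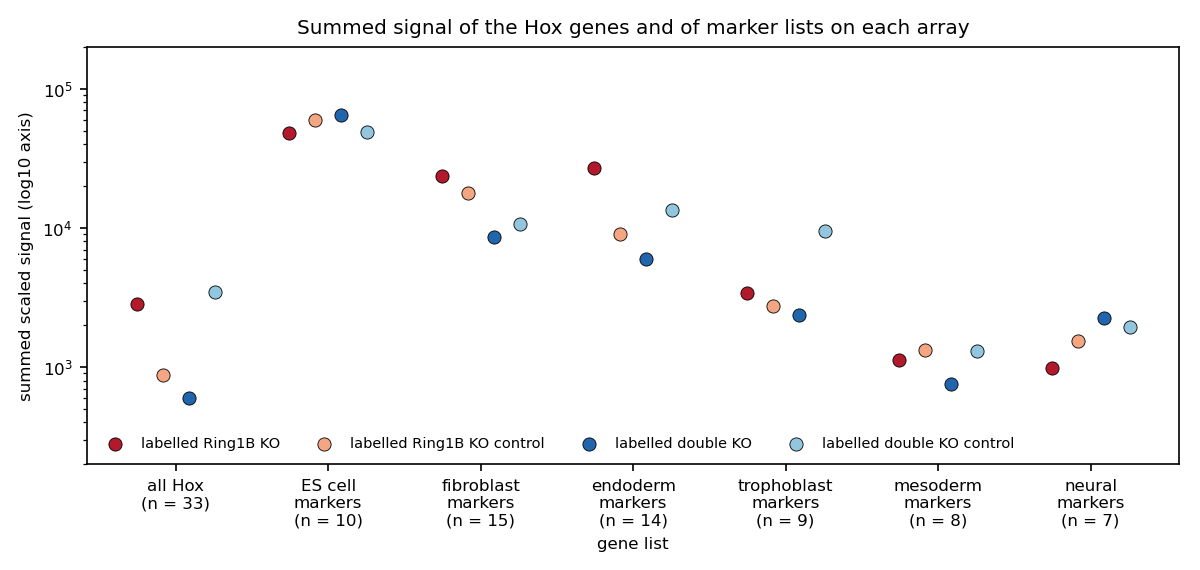
Summed scaled signal (log10 axis) of the 33 Hox genes and of 6 marker lists on the 4 arrays. The Hox sum is 2858 and 879 on the arrays labelled Ring1B KO and Ring1B KO control and 602 and 3472 on those labelled double KO and double KO control. The endoderm, fibroblast and trophoblast sums have the same order within each pair, and the ES cell and neural sums the opposite one. The mesoderm sum is lower on the array labelled KO in both pairs. Sums are weighted towards the brightest genes of a list.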

How the data were processed

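Total RNA of 4 mouse ES cell samples was labelled with biotin and hybridised to 1 Affymetrix array each, per the labels' protocols. The authors deposited, for each of 45101 probe sets, a linear intensity; the submitters' processing notes name MAS5, whose version and settings are not given in the sources used here. Deposited 2%-trimmed means were 500.0 for both Ring1B arrays, 147 for the double KO array and 160.4 for its control.

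Each array was scaled to a common 2%-trimmed mean of 277, floored at 36.6 and log2-transformed (Python 3.11.15, pandas 2.3.3). Gene names came from the platform annotation, and all 48 Hox probe sets matched the RefSeq table by Entrez identifier. Of several probe sets of a gene the brightest by mean log2 signal was taken. Control probe sets and those with several names were left out. At least 2-fold counted as a call. Alternatives were other scalings, floors, thresholds, probe set rules and the other control array. No test was run, with 1 array per group. The steps recovered known changes in simulated data, for genes with signals far above the floor. Changes near the floor, where most Hox signals lie, were not simulated, so the simulation does not bear on those calls. Hox genes at least 2-fold apart in a comparison were to be given in full and the rest summarised. The naming rule for members and the lists were chosen with earlier results of these data known. A protein table was not used here. The number of arrays limits the precision.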

Additional observations from a re-analysis of the deposited data

Results flagged for a closer look

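For 11 Hox genes the array labelled Ring1B KO was at least 2-fold above its control while the array labelled double KO was at least 2-fold below its own, and this difference between the comparisons was not tested. The log2 differences in the Ring1B comparison and then in the double KO comparison were 1.96 and −1.70 for Hoxa7, 2.74 and −3.53 for Hoxa9, 2.59 and −1.51 for Hoxa10, and 2.00 and −2.67 for Hoxa11. They were 1.02 and −1.04 for Hoxb4, 1.17 and −2.76 for Hoxb13, 1.11 and −1.26 for Hoxc4, and 1.08 and −2.32 for Hoxc10. In the Hoxd cluster they were 1.73 and −3.16 for Hoxd8, 1.77 and −3.47 for Hoxd9, and 3.44 and −2.98 for Hoxd13. All sizes in the double KO comparison are bounds. The directions rest on the labels of the arrays, which the signals of Rnf2 and Ring1 do not check.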

How the results depend on the processing

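No paired analysis was possible because each group had 1 array and the labels give no replicate numbers. In the Ring1B comparison 13 genes were at least 2-fold higher and the median was 0.80. A floor at percentile 20 gave 19 and 1.38, one at percentile 60 gave 2 and 0, with the mean over probe sets 12 and 0.41, and set against the other control array 3 and 0. A 4-fold threshold left 3 genes. In the double KO comparison 14 genes were at least 2-fold lower and the median was −0.43. With the values as deposited these were 7 and 0, for a floor at percentile 20 they were 24 and −1.87, at percentile 60 4 and 0, and set against the other control array 1 and 0. A 4-fold threshold left 7 genes. With Hoxa5 read from its other probe set, an alternative chosen after seeing the data, the median was −0.78. Set against the other control array, 8 of the 13 Ring1B calls turned: Hoxa9 to −0.68, Hoxa11 to −0.31, Hoxb4 to −0.0158, Hoxb13 to −1.59, Hoxc4 to −0.15, Hoxc10 to −1.24, Hoxd8 to −1.19 and Hoxd9 to −1.70. No called gene changed direction under the other scalings, floors or probe set rules, though 7 in each comparison were at the floor set at percentile 60. Leaving out probe sets of the classes s, x and a, Hoxa10 was at the floor and Hoxc6 had a bound of −0.21 in the double KO comparison. Quantile normalization gave 11 and 14 calls.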
